A study of Mus musculus with 3 samples.

Results

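Replication and mitosis genes were described in single-cell RNA profiles of mouse liver cells sorted for Kupffer cells, the resident macrophages of the liver. The set holds 33 genes chosen by name, all of which were found among the 28692 genes of the files. It comprises 15 genes used in S phase, when DNA is copied, 13 genes used in mitosis, and 5 broader genes that dividing cells express strongly but resting cells also use. Cells came from male mice aged 8 weeks, 1 mouse and 1 library for each diet: normal chow (day 0), or a liquid Lieber-DeCarli diet holding 5% ethanol, given for 3 or for 10 days. Live non-parenchymal cells with high F4/80 and intermediate CD11b were sorted and run on the 10x Genomics 3' v2 chemistry. With 1 mouse a diet there is no replicate check, and diet, mouse, library and the form of the diet (solid or liquid) cannot be told apart. No test was made between diets.

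A dividing cell first licenses its replication origins with the MCM helicase, then makes nucleotides, histones and replication proteins as the DNA is copied, and afterwards switches to cyclin B, the mitotic kinase CDK1, spindle proteins and the anaphase-promoting complex. Many S-phase genes are driven by E2F transcription factors, while many mitotic genes are held down in resting cells by the DREAM complex, which reads a short element called CHR, often near CCAAT boxes bound by NF-Y. Kupffer cells are long-lived and renew themselves largely by division inside the liver.

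Promoters are shown first for 4 members. Top2a, a DNA topoisomerase that untangles chromosomes, and Cdk1, the mitotic kinase, are mitotic members with CHR and CCAAT letters. Mcm5 and Mcm6, subunits of the replicative helicase, are S-phase members with E2F letters, picked from the 4 called lower at 3 days. Each line gives the 250 bases before the gene's start, 5' to 3' on the gene's own strand, from RefSeq on GRCm38.p6. Capitals mark 3 motifs on either strand. For CHR the letters TTTGAA were searched, and as a second form the letters TTCGAA. For NF-Y the letters CCAAT were searched. For E2F the letters were TTTCCCGC, TTTCGCGC, TTTGCCGC or TTTGGCGC. The Top2a stretch is chr11:99024190-99024439 (minus strand), that of Cdk1 chr10:69352913-69353162 (minus), that of Mcm5 chr8:75109259-75109508 (plus) and that of Mcm6 chr1:128359706-128359955 (minus).
Top2a: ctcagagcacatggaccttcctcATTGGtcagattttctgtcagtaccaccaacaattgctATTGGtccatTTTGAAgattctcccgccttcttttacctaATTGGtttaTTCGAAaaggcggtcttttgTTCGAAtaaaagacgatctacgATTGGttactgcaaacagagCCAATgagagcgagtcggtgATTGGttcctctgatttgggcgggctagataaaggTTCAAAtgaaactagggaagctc
Cdk1: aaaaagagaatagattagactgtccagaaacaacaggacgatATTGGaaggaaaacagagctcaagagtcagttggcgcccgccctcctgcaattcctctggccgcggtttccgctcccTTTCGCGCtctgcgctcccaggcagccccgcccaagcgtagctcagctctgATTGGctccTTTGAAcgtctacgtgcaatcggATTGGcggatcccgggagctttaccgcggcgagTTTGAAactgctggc
Mcm5: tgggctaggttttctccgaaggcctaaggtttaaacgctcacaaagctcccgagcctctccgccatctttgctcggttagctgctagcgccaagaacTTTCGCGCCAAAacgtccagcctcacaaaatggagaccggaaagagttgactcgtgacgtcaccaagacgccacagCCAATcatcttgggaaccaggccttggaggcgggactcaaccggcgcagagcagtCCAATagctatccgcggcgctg
Mcm6: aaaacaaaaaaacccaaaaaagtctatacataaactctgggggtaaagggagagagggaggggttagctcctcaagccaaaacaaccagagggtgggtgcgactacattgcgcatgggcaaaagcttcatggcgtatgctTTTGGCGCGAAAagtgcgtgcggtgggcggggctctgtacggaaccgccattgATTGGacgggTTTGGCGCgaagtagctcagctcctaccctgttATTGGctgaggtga
Top2a holds 4 CHR matches and 6 CCAAT matches, and Cdk1 holds 2 CHR, 3 CCAAT and 1 E2F match. Mcm5 holds 2 E2F matches that overlap each other, and Mcm6 holds 3, of which 2 overlap. Neither of these 2 helicase genes holds a CHR match in this window. The other S-phase members called lower at 3 days differ from them. Mcm2 holds CHR and CCAAT matches but no E2F match, and Tk1 holds no match of any of the 3 motifs. Overlapping matches were counted separately.

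RefSeq promoters were matched for 29 of the 33 members, and Mcm4, Ccna2, Tpx2 and Stmn1 were not matched. A CHR match and a CCAAT match stood in the same promoter for 6 of 11 matched mitotic members and 5 of 14 matched S-phase members. Over all 27025 genes in the promoter table that share was 7.0%. CCAAT alone was found for 9 of 11 mitotic and 12 of 14 S-phase members, against 37.5% of all genes. E2F letters were found for 3 of 14 S-phase members (Mcm5, Mcm6 and Mcm7) and 1 of 11 mitotic members (Cdk1), against 2.16% of all genes. These are letter matches in a window and say nothing of binding.

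The libraries held 16538895 to 21650747 UMIs (unique molecular identifiers, 1 per captured RNA molecule). Barcodes with at least 1000 UMIs, at least 300 genes and at most 10% mitochondrial UMIs were kept as cells: 2767 on chow, 4061 at 3 days and 3014 at 10 days, beside the 3000 to 5000 cells a sample that the submitters state. Median depth was 4552, 3051 and 2982 UMIs a cell. The libraries shared 13 to 20 kept barcodes in each pair, against 11.3 to 16.6 that chance draws from the barcode list would give. Clusters were made without any cell-cycle gene and named from marker genes. Kupffer-like cells numbered 2391, 3584 and 2616, lymphoid-like cells (T, NK, B and plasma cells) 137, 99 and 165, and endothelial-like cells 44, 111 and 76. The lymphoid-like and endothelial-like cells lie outside the labelled cell type of the sort.

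Levels are given as CPM, the UMIs of a gene per 1000000 UMIs of the summed cells. Few Kupffer-like cells carried the mitotic program, and those that did carried most of its RNA. To set depth aside, each cell was thinned at random to 1000 UMIs, and a cell with at least 2 distinct mitotic members was called a mitotic carrier. By this rule 32 of 2391 Kupffer-like cells on chow were carriers (1.34%, 95% exact binomial interval 0.917 to 1.88%), 60 of 3584 at 3 days (1.67%, 1.28 to 2.15%) and 49 of 2616 at 10 days (1.87%, 1.39 to 2.47%). The 3 intervals overlap. All intervals here cover counting error only, not differences between mice. Without thinning the shares were 3.72%, 3.10% and 3.17%, in another order, with chow the deepest library. In B and plasma cells 0 of 41 cells met the rule, which allows a share of up to 7.32% (3 cells of 41; the exact 95% interval reaches 8.60%). That limit lies above all 3 Kupffer-like shares, so these cells are too few to give a background for the rule. Their median depth was 2051 UMIs, against 3346.5 in Kupffer-like cells that were not carriers.

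S-phase carriers, cells with at least 3 distinct S-phase members after the same thinning, were 35 Kupffer-like cells on chow (1.46%, 1.02 to 2.03%), 34 at 3 days (0.949%, 0.658 to 1.32%) and 50 at 10 days (1.91%, 1.42 to 2.51%). The intervals of the 3-day and 10-day libraries do not overlap, and that of chow overlaps both. Both rules were met by 10, 21 and 21 cells, so 52 of the 141 mitotic carriers were also among the 119 S-phase carriers. Carriers had more RNA: the median mitotic carrier held 4908.5, 4196 and 3839 UMIs, against 4573, 3018.5 and 3019 in the other Kupffer-like cells. Of the 141 mitotic carriers, 5 were among the 4% of cells with the highest doublet scores.

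**Figure D1:**
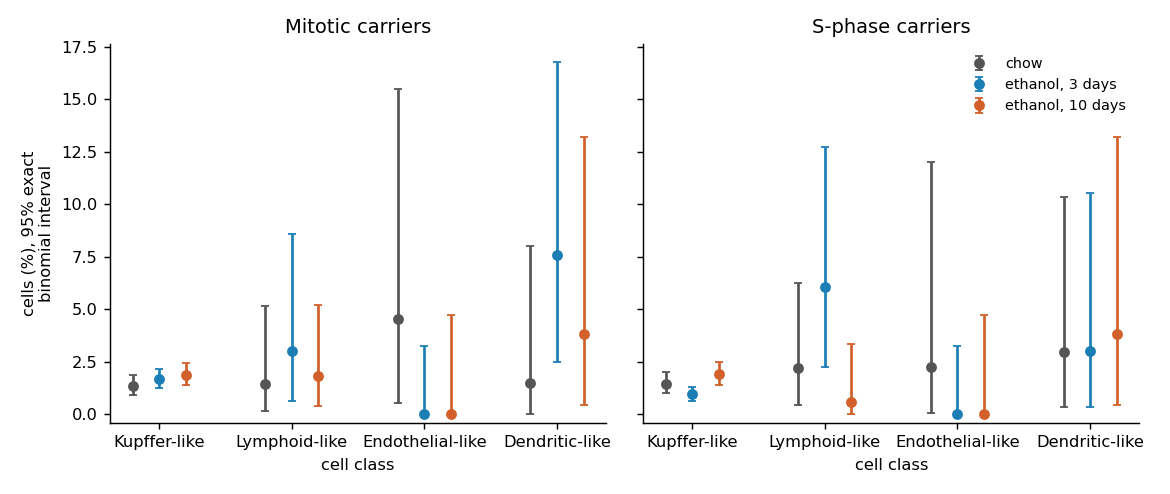
Share of cells (%) that were mitotic carriers (left) or S-phase carriers (right) in 4 cell classes; points are libraries, coloured by diet, and bars are 95% exact binomial intervals. Kupffer-like shares lie between 0.949% and 1.91% with narrow bars, while the other classes hold so few cells that their bars are several times wider.

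Mitotic RNA was packed into these cells. The 141 mitotic carriers, 1.64% of Kupffer-like cells, held 76.6% of all Top2a UMIs, and 43 cells held 50% of them. For Nusap1, a spindle microtubule protein, the carriers held 84.8% of UMIs. Ube2c, the ubiquitin-conjugating enzyme of the anaphase-promoting complex, and Ccna2, cyclin A2, each had 78.7% of UMIs there. Ccnb1, cyclin B1, had 77.3%. Birc5 (survivin, of the chromosomal passenger complex), Cenpf (a kinetochore protein), Ccnb2 (cyclin B2), Cdc20 and Tpx2 had 61.8% to 67.1%, and Mki67, the antigen that coats mitotic chromosomes, had 53.6%. These shares are a description, since these genes chose the cells. The lowest mitotic members were Cenpa, the centromeric histone, with 29.3%, and Cdk1 with 39.0%. Most UMIs of these 2 genes thus lay in cells that did not meet the rule. In those cells Cenpa read 20.1 CPM and Cdk1 11.2 CPM over all libraries. Barcodes too poor in UMIs to be cells, which show the level of free RNA, read higher. Across the libraries they gave 30.3 to 47.2 CPM for Cenpa and 18.4 to 21.2 for Cdk1. The part of free RNA in these UMIs was not tested.

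Members that took no part in the rule divided into concentrated and spread genes. Rrm2, the regulated subunit of ribonucleotide reductase, had 70.5% of its UMIs in mitotic carriers, and 2810417H13Rik (Pclaf, a PCNA-binding protein) had 60.3%. Stmn1, which destabilises microtubules, had 52.1%, and the linker histone gene Hist1h1b 43.0%. At the other end, carriers held 4.64% of Mcm4 UMIs, 7.0% of Mcm3, 7.56% of Pcna (the sliding clamp of DNA polymerase) and 7.65% of H2afz, a histone variant. The other members lay between: Mcm2, Mcm5, Mcm6, Mcm7, Rrm1, Tyms, Tk1, Hist1h2ap and Hist1h2ae among the S-phase members had 9.25% to 32.0%, and Hmgb2, Tubb5 and Tuba1b 11.5% to 24.5%. Pcna RNA needed 762 cells to reach 50% of its UMIs, where Rrm2 needed 27. UMIs of Pcna, the MCM genes and H2afz were thus found mostly outside the mitotic carriers. There Mcm4 read 13.8 CPM and H2afz 337 CPM over all libraries. The barcodes of free RNA read higher, at 17.1 to 18.8 and 372 to 526 CPM across the libraries. Pcna and Mcm3 went the other way, at 76.8 and 36.2 CPM against 49.4 to 68.2 and 26.5 to 32.8. The part of free RNA in these UMIs was not tested.

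**Figure D2:**
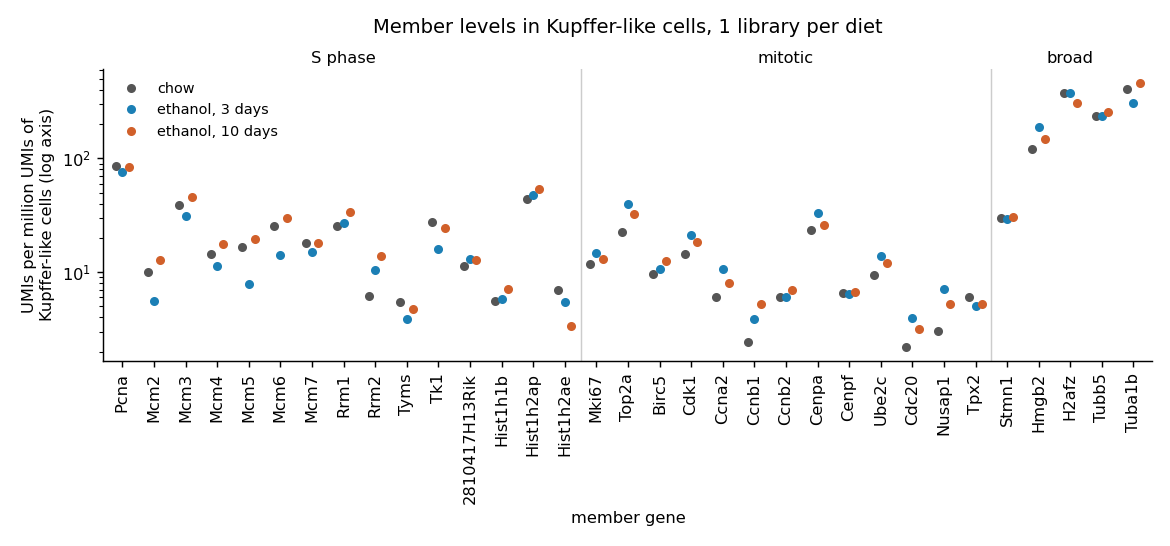
Level (CPM, log axis) of the 33 members in Kupffer-like cells, 1 point per library coloured by diet, with members grouped by role. Mcm2, Mcm5, Mcm6 and Tk1 have their lowest point at 3 days, and Top2a its highest.

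Mitotic carriers were next compared with the other Kupffer-like cells of the same library, over summed counts of the 3 libraries (edgeR's quasi-likelihood test with the library as a term, Benjamini-Hochberg adjusted over 10608 genes). In all, 1318 genes (12.4%) were called. S-phase members rose with the mitotic ones: 14 of 15 were higher at adjusted p under 0.05, against a background of 6.38% of all genes called higher. All 5 broad members were higher. The list median was 3.16 (log2) for S-phase members and 2.65 for broad members, against -0.08 over all genes tested. Each library stands for 1 mouse on its own diet, so this test has 3 pairs. It pools the spread over genes, so an SE or adjusted p is not the spread of that gene's own 3 pairs. A small adjusted p therefore does not show that the pairs agree: Apol7c, described below, passed while higher in 1 pair only.

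Rrm2 stood at 232, 343 and 410 CPM in the carriers of the chow, 3-day and 10-day libraries, and at 2.39, 2.95 and 3.70 CPM in the other cells. All 3 pairs were far apart, and the log2 difference was 6.60 (SE 0.222, adjusted p = 1.82e-186). 2810417H13Rik had 356, 384 and 330 CPM in carriers and 5.76, 4.51 and 4.66 in the others (log2 6.01, SE 0.198). Rrm1, the other ribonucleotide reductase subunit, had 286, 358 and 353 CPM in carriers and 21.3, 19.6 and 25.7 in the others. The replication-dependent histone gene Hist1h2ap had 814, 674 and 768 CPM against 31.1, 33.9 and 36.1. Copies of the histone genes are nearly identical, so the counting may have split or dropped their reads, and their values are uncertain; the same holds for Tuba1b and Tubb5, the tubulin genes with close paralogs.

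The MCM genes differed less between carriers and other cells, and unevenly among themselves. Mcm5 was 113, 118 and 226 CPM in carriers against 15.1, 5.37 and 14.3 (log2 3.62, SE 0.239). Mcm7 had a log2 difference of 3.05, Mcm6 2.64, Mcm2 2.10 and Mcm3 1.65, all at adjusted p under 0.05. In the chow pair the ratio of Mcm3 was 1.38, with a counting interval that includes 1 (0.659 to 2.57), against 5.75 at 10 days. Mcm4 was the S-phase member that did not pass, with 21.6, 26.6 and 47.1 CPM in carriers against 14.4, 11.0 and 17.0 (log2 1.03, SE 0.394, edgeR adjusted p = 0.0661). Within carriers Mcm6 read 70.1 CPM on chow, 76.1 at 3 days and 283 at 10 days, and Mcm3 read 53.9, 95.2 and 235, so both were highest in the 10-day carriers. The remaining nucleotide enzymes Tk1 (log2 2.59, thymidine kinase) and Tyms (log2 3.17, thymidylate synthase) also passed.

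**Figure D3:**
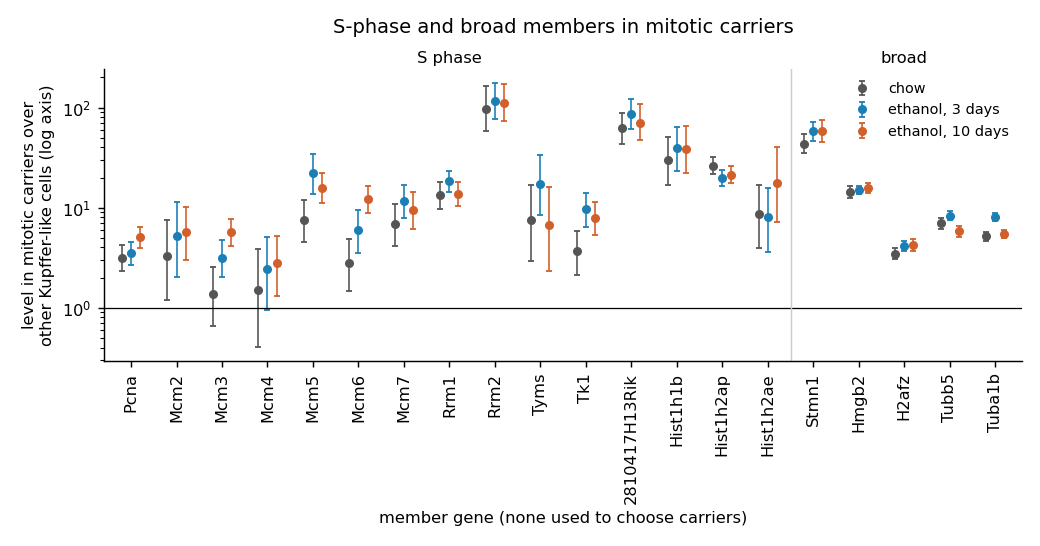
Ratio of the level in mitotic carriers to that in the other Kupffer-like cells (log axis) for the S-phase and broad members, which did not choose the carriers; points are libraries coloured by diet, bars are 95% intervals from counting error. Rrm2, 2810417H13Rik and Stmn1 lie highest in all 3 libraries. The bars of Mcm4 reach 1 on chow and at 3 days, and that of Mcm3 on chow.

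The other cell-cycle genes moved with the members. Of a wider list of 66 S-phase genes, 62 could be tested and 50 were higher; of a wider list of 82 mitotic genes, 81 could be tested and 80 were higher. The list medians were 2.40 and 5.39 (log2). Examples are E2f8, an atypical E2F repressor (log2 6.0, SE 0.688), Uhrf1, which helps copy DNA methylation (5.24, SE 0.433), Aspm, a spindle pole protein (8.29, SE 0.636), Kif2c, a kinesin that removes microtubule ends (7.40, SE 0.440) and Plk1, a mitotic kinase (7.10, SE 0.381).

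Outside these lists, the genes with the largest positive differences included Prr11, Cep55 (a protein of the final cut between daughter cells), Kifc1 (a spindle kinesin), Fignl1, Arhgef39, Cenpq, Dbf4 (the activator of the origin-firing kinase) and Cdkn2c, an inhibitor of the kinases CDK4 and CDK6. Cdkn2c had 80.9, 236 and 98.9 CPM in carriers against 6.56, 10.3 and 5.61 in the other cells (log2 4.05, SE 0.260). Apol7c was also among them (log2 3.57), but it was higher in 1 of the 3 pairs only, with 199 CPM in the chow carriers, 0 at 3 days and 4.71 at 10 days. It is a leading gene of a small Kupffer cluster that held 1 of the 32 chow carriers. Without the chow library its log2 difference was -1.09 (edgeR adjusted p = 0.791).

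Kupffer marker genes were mostly lower in the carriers than in the other Kupffer-like cells. Both sets came from clusters named with these same marker lists, and clusters with markers of another type were set apart. That carriers held Kupffer markers and few markers of other cells is thus partly fixed by this choice. Of 14 Kupffer marker genes, 13 were lower in mitotic carriers and 1 was higher, with a list median of -0.54 (log2), where 6.04% of all genes were called lower. Clec4f, the Kupffer lectin, was 2824 CPM in carriers against 4198 on chow, 2977 against 4143 at 3 days and 3160 against 4167 at 10 days. The exception was Marco, a scavenger receptor, at 383, 556 and 1140 CPM in carriers against 339, 356 and 595 in the others. Marco is also a leading gene of the Kupffer cluster that held 31 of the 49 carriers at 10 days and 51.6% of Kupffer-like cells of that library, and the part of this cluster in the Marco result was not tested. Of the markers of other cells, 0 were called higher. The list median was -0.02 over 13 tested T and NK markers, -0.02 over 8 B and plasma markers, 0.02 over 2 dendritic cell markers and -0.10 over 7 monocyte and neutrophil markers, with 0 called lower. It was -0.26 over 17 endothelial markers (1 lower), -0.32 over 9 hepatocyte markers (2 lower), -0.97 over 4 stellate cell markers (0 lower) and -1.12 over 4 erythroid markers (0 lower). Over all genes tested the median was -0.08.

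Among the genes with the largest negative differences in carriers were Klf4, a zinc-finger transcription factor (16.2, 3.81 and 51.8 CPM against 24.0, 60.3 and 106), Cd14, the co-receptor for bacterial lipopolysaccharide (37.7, 49.5 and 42.4 against 82.0, 118 and 95.6), and Kcna2, a potassium channel (108, 87.6 and 89.5 against 241, 198 and 213). Slfn5, Crip2, Cirbp, Ndfip1, Cd37, Ltc4s (which makes leukotriene C4) and Adap2os completed this set, with log2 differences from -1.59 to -1.29. Each of the 10 genes was lower in carriers in 3 of 3 libraries. The carrier sums held only 185521 (chow), 262692 (3 days) and 212351 UMIs (10 days). The lowest carrier values, such as 3.81 CPM for Klf4 at 3 days and 4.71 for Cirbp at 10 days, thus rest on very few UMIs. Klf4, Ltc4s and Adap2os were not called without the replicate block (edgeR adjusted p from 0.0873 to 0.212), and Cd37 and Adap2os were not called with DESeq2. Over all genes, 641 were called lower in the main test, 213 without the block and 242 with DESeq2. Klf4 and Ltc4s are leading genes of 1 Kupffer cluster with few carriers: 0 of 93 cells on chow, 2 of 318 at 3 days (0.629%) and 5 of 757 at 10 days (0.661%). The part of this cluster in their result was not tested.

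When S-phase carriers were compared with other Kupffer-like cells by the same test, the 13 mitotic members, which did not choose these cells, were all higher, against a background of 5.71% of 10504 genes. Their median log2 difference was 4.14, against -0.11 over all genes. Of the wider mitotic list, 76 of 81 tested genes were higher. This comparison was chosen after the data were seen.

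The diets were then set side by side in Kupffer-like cells. A member was called where its CPM ratio passed 1.5 (or fell below 0.667) and the exact 95% interval of the ratio, from counting error, excluded 1. This interval takes each UMI as an independent draw. UMIs of 1 cell are not independent, so it does not cover which cells were sampled. At 3 days against chow, 10 of 33 members were called. Among S-phase members 4 were lower and 1 was higher; among mitotic members 4 were higher and 0 lower; of the broad members, 1 was higher. Over all 11323 genes tested, 4.50% were called higher and 3.31% lower. The median log2 ratio was -0.29 for S-phase members, 0.51 for mitotic members and 0.02 for all genes tested. The difference between the S-phase and mitotic lists was not tested.

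The 4 lower S-phase members were 3 helicase subunits and thymidine kinase. Mcm5 read 16.6 CPM on chow, 7.88 at 3 days and 19.6 at 10 days (3-day ratio 0.473, 0.365 to 0.610). Mcm6 read 25.6, 14.1 and 29.7 (ratio 0.552, 0.454 to 0.670), and Mcm2 read 10.1, 5.59 and 12.8 (ratio 0.553, 0.403 to 0.755). Tk1 read 27.6, 16 and 24.3 (ratio 0.580, 0.481 to 0.696). In each of these the 3-day library was lowest. Against 3 days, the 10-day library was called higher for Mcm2, Mcm4, Mcm5, Mcm6 and Tk1, with ratios of 1.52 to 2.48, and for Tuba1b; Hist1h2ae was lower. That is 7 of 33 members, where 4.04% of genes were called higher and 3.59% lower. None of these 5 S-phase genes was called between 10 days and chow.

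The lower values were also read without the carriers. Without any mitotic or S-phase carrier, Mcm5 read 4.70 CPM at 3 days against 11.7 on chow (ratio 0.401), Mcm6 12.3 against 20.9 (0.588), Mcm2 4.87 against 8.77 (0.556) and Tk1 12.5 against 24.3 (0.515), and Tyms was then called too (0.610). In these cells 3.53% of genes were called lower and 4.45% higher. Mcm2, Mcm5, Mcm6, Tk1 and Tyms are among the members that chose the S-phase carriers. Leaving out cells by these genes removes their RNA in every library, so the ratios do not test where the difference lay. The same holds for S-phase and mitotic members in the other readings without carriers. Different Kupffer clusters filled the libraries: 1 cluster held 60.4% of Kupffer-like cells on chow, another 46.3% at 3 days and another 51.6% at 10 days. Within clusters holding at least 20 UMIs of the gene, the 3-day ratio was below 1 in 3 of 3 clusters for Mcm2 and Mcm5 and in 4 of 4 for Mcm6 and Tk1. With the clusters weighted equally, the ratios were 0.470, 0.647, 0.574 and 0.688 for Mcm2, Mcm5, Mcm6 and Tk1. The part of carriers and of cluster make-up in the lower values was not tested.

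Barcodes too poor in UMIs to be cells show the level of free RNA. In barcodes of 10 to 100 UMIs, Mcm5 read 17.7 CPM on chow, 8.18 at 3 days and 19.2 at 10 days, Mcm2 12.0, 5.29 and 12.0, and Tk1 32.8, 17.1 and 30.2. Mcm6 read 24.6, 17.8 and 19.2. For Mcm2, Mcm5 and Tk1 these barcodes thus show the 3-day dip at about the size seen in the cells, and its part in the result was not tested. Members that were higher in the cells at 3 days were higher in these barcodes too. Top2a read 13.1, 22.1 and 20.5 CPM there, Ccna2 5.09, 9.62 and 8.45, and Rrm2 7.31, 10.6 and 11.4. Hmgb2 read 145, 204 and 155, Nusap1 4.21, 6.26 and 4.88, and Cdc20 2.66, 4.09 and 2.93, the last from 9 to 17 UMIs a library. The part of free RNA in these results was not tested either. Hist1h2ap had 1.77 CPM in such barcodes on chow, against 43.8 in Kupffer-like cells.

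Of the 13 mitotic members, 4 were called higher at 3 days than on chow. Top2a read 22.7 CPM on chow, 40.1 at 3 days and 32.4 at 10 days (3-day ratio 1.77, 1.52 to 2.07). Few cells set this ratio: 12 cells held 50% of the Top2a UMIs on chow, and 20 cells at 3 days. Nusap1 read 3.05, 7.12 and 5.24 (ratio 2.33, 1.56 to 3.57), Ccna2 6.01, 10.6 and 8.04 (ratio 1.76, 1.30 to 2.40), and Cdc20, the activator of the anaphase-promoting complex, 2.18, 3.98 and 3.15 (ratio 1.83, 1.10 to 3.10). Rrm2 was the higher S-phase member, at 6.10, 10.5 and 13.7 (ratio 1.72, 1.27 to 2.34). With the mitotic carriers left out, 0 mitotic members were higher and 1 was lower (Tpx2, a spindle assembly factor) of 11 that could be tested, with 4.38% of genes called higher and 3.52% lower. Leaving out cells by their mitotic members removes this RNA in every library, so these counts do not test where the difference lay. Without any carrier of either kind, 1 mitotic member was called higher (Cdk1, at 13.3 CPM against 8.86, with an interval of the ratio from 1.16 to 1.95) and 1 lower (Tpx2, at 1.04 against 2.86, ratio 0.365). With the 5 Kupffer clusters weighted equally, the 3-day ratio was 1.25 for Top2a, which was above 1 in 3 clusters and below 1 in 2 (0.610 to 5.40). It was 1.19 for Ccna2, 1.30 for Cdc20, 2.25 for Nusap1 and 1.89 for Rrm2. For Birc5, Ccnb1, Ccnb2, Cenpa, Cenpf and Tpx2 it was below 1, from 0.442 to 0.991. The equal-weight ratios of Top2a, Ccna2 and Cdc20 were under 1.5. Such weighting counts small clusters as much as large ones. On chow 1 cluster held 47 cells with 1 mitotic carrier, and another 1444 cells with 18. The part of cluster make-up in these results was not tested. Hmgb2, a chromatin protein, was 120, 189 and 149 CPM (3-day ratio 1.58, 1.48 to 1.69; 1.51 with equal cluster weights).

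At 10 days against chow, 4 of 33 members were called: Rrm2 (ratio 2.25), Ccnb1, which is cyclin B1 (2.15), and Nusap1 (1.72) were higher, and Hist1h2ae was lower (0.485). The background was 5.14% higher and 4.37% lower. Without any carrier 2 members were called, both lower (Hist1h2ae and Top2a), with 4.59% of genes lower. Comparisons over chow share the chow library, and those with 3 days share that one.

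**Figure D4:**
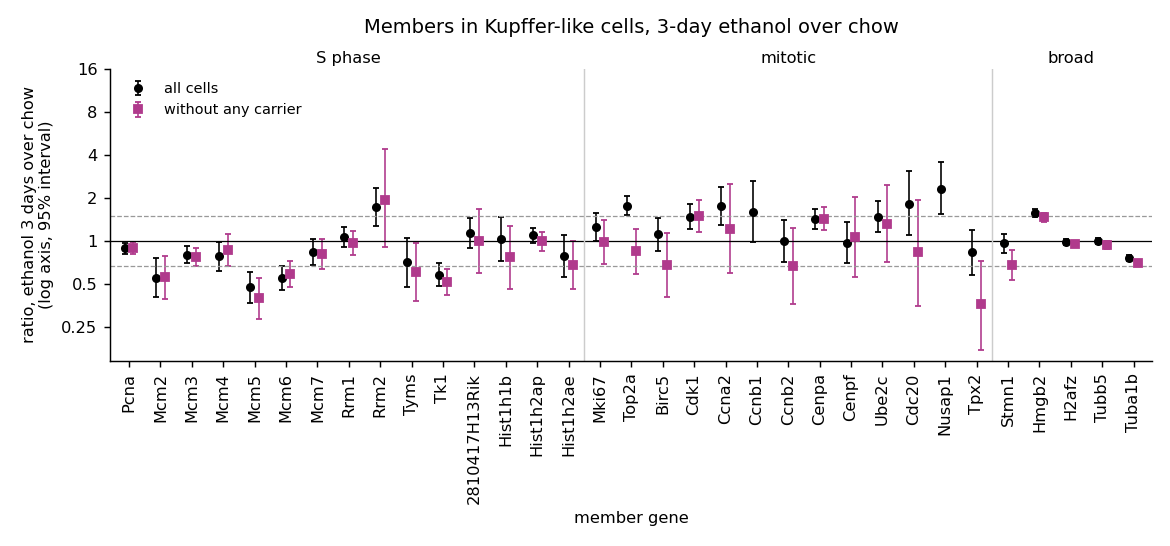
Ratio of member levels at 3 days of ethanol diet to chow in Kupffer-like cells (log axis), for all cells (black circles) and without any carrier (purple squares); bars are 95% intervals from counting error and dashed lines mark ratios of 1.5 and 0.667. Mcm2, Mcm5, Mcm6 and Tk1 stay below the lower dashed line in both sets. The black point of Top2a is at 1.77 and its purple point below 1. All S-phase and mitotic members, these genes among them, took part in choosing the carriers.

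Of 25 members with enough UMIs in lymphoid-like cells, 16 were higher at 3 days than on chow and 0 lower: 10 of 15 S-phase, 2 of 5 mitotic and 4 of 5 broad members. Enough means 20 UMIs over both libraries, so a member can pass through the library where it is high. These counts of members are thus a description. Over all 4883 genes, 4.98% were called higher and 3.11% lower. Stmn1 read 46.1 CPM on chow, 377 at 3 days and 72.2 at 10 days (3-day ratio 8.18, 5.31 to 13.1). 2810417H13Rik read 40.8, 298 and 53.6 (ratio 7.32, 4.59 to 12.1), and Hist1h2ap 95.7, 502 and 112 (ratio 5.24, 3.82 to 7.29). In each case the 3-day library stood alone. At 10 days against 3 days, 12 of 20 members were lower and 0 higher, where 6.24% of genes were called lower and 2.11% higher. Against chow, the 10-day library had 2 of 18 called, Cenpa higher and Top2a lower, with 3.88% of genes called higher and 6.97% lower.

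Mitotic carriers were 2 of 137 lymphoid-like cells on chow (1.46%, 0.177 to 5.17%), 3 of 99 at 3 days (3.03%, 0.629 to 8.60%) and 3 of 165 at 10 days (1.82%, 0.377 to 5.22%). S-phase carriers were 3, 6 and 1 cells (2.19%, 6.06% and 0.606%). All carriers fell in the T and NK cluster. These counts depend on the random thinning. Before it, 2 mitotic carriers at 10 days held 13 and 4 distinct S-phase members, the first among 20684 UMIs, yet neither met the S-phase rule. An S-phase carrier at 3 days held 8 distinct mitotic members and did not meet the mitotic rule. At 3 days, 7 lymphoid-like cells met either rule. Of these, 4 held 122, 173, 269 and 300 member UMIs, and the rest 93, 30 and 8. The 3 such cells on chow held 306, 24 and 25, and the 3 at 10 days 110, 153 and 244. Values of each library thus rest on few cells. Without the carriers of either kind, 4 of 11 testable members were still higher at 3 days (Hist1h2ap, Stmn1, Hmgb2 and Tuba1b), and 4.61% of genes were called higher. No mitotic member had enough UMIs left to be read. Stmn1 was then 140 CPM against 14.7, from 36 and 8 UMIs. Also without carriers, 4 of 9 members were lower at 10 days than at 3 days (6.08% of genes), and 0 of 10 were called at 10 days against chow (11.2% of genes in either direction).

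**Figure D5:**
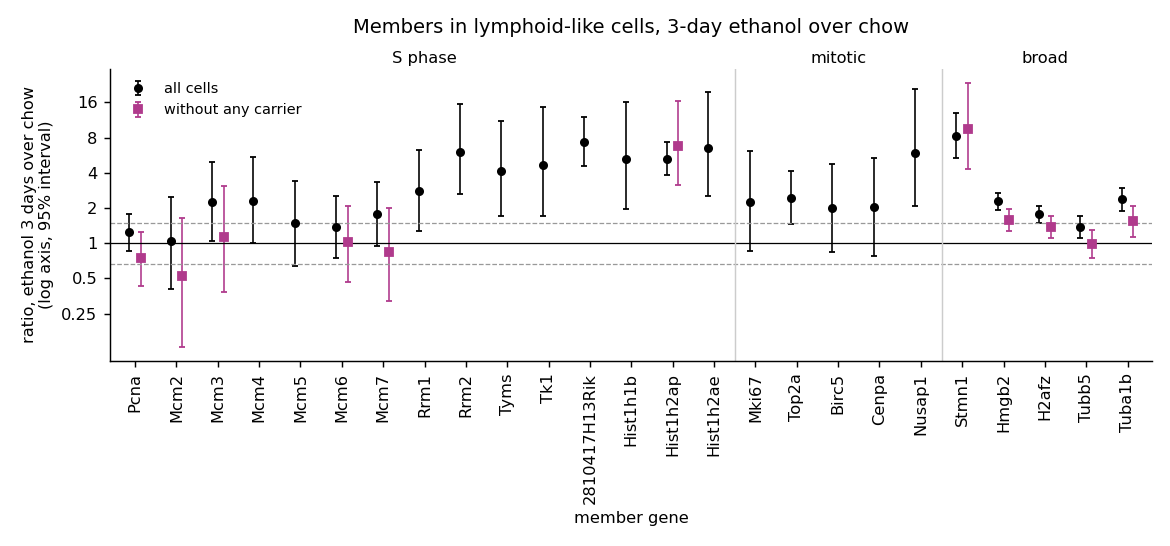
Ratio of member levels at 3 days of ethanol diet to chow in lymphoid-like cells (log axis), for all cells (black circles) and without any carrier (purple squares), for the 25 members with at least 20 UMIs; bars are 95% intervals from counting error and dashed lines mark ratios of 1.5 and 0.667. With the carriers left out, 11 members could still be drawn, and Stmn1 and Hist1h2ap stay far above 1.

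Endothelial-like cells gave the smallest counts. On chow 2 of 44 were mitotic carriers (4.55%, 0.555 to 15.5%), and 1 of these 2 was among the top doublet scores. The 2 cells held 132 and 58 UMIs of endothelial markers, 16 and 13 of Kupffer markers and 0 of T and NK markers. At 3 days 0 of 111 cells were carriers, which allows a share of up to 2.70% (3 cells of 111), and at 10 days 0 of 76, which allows up to 3.95% (3 cells of 76). The exact 95% intervals reach 3.27% and 4.74%, and the chow interval overlaps both. Of 9 testable members, 6 were lower at 3 days than on chow (background 3.94%) and 7 were lower at 10 days (background 4.13%). Here too a member can pass the limit on UMIs through the library where it is high. Stmn1 read 261, 27.0 and 9.06 CPM, from 39, 8 and 2 UMIs, and Hist1h2ap 221, 16.9 and 9.06 CPM, from 33, 5 and 2 UMIs. Without the 2 chow carriers, 1 of 7 members was lower at 3 days (Tuba1b, background 3.62%) and 1 of 5 at 10 days (H2afz, background 3.17%).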

How the data were processed

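Per the labels' protocols, live F4/80-high cells were sorted from liver and libraries made with the 10x 3' v2 kit. The authors deposited unfiltered UMI counts per gene and barcode; per the submitters' processing notes, Cell Ranger 2.2.0 was used with GRCm38, also listed as mm10. For the annotation release and the aligner settings, the entry is: not given in the sources used here. The members and lists were chosen with earlier results of these data known.

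Barcodes were filtered as stated, then clustered (scanpy 1.11.5, 2000 variable genes, 30 principal components, 15 neighbours, Leiden resolution 0.6) without members, wider cell-cycle lists or histone genes. A cluster was named when at least 3 fixed markers of 1 type were among its 25 leading genes. It was Kupffer-like when the median ratio of Kupffer markers to their level in all cells was at least 0.5. No other type then had 3 markers. Clusters with 3 markers of another type that also reached this ratio of 0.5 were set apart as mixed. Class names are rebuilt here and are not the authors'. Scrublet's automatic threshold marked 0 cells, so doublets were kept, and removing the top 4% of scores was an alternative. CPM are summed UMI counts scaled to 1000000 UMIs. Diet ratios needed 20 UMIs over both libraries. Carriers were tested with edgeR 4.0.16 (R 4.3.3) on summed unthinned counts, and the test was checked on simulated data; DESeq2 1.42.0 was an alternative. Carriers and other cells of 1 library come from 1 mouse, so the library was a term. Named genes were the members, the 5 largest differences in each wider list, and the 10 highest and 10 lowest other genes that were called and reached 50 CPM, leaving out mitochondrial, ribosomal, histone and provisional genes. Further alternatives were thinning, thresholds, filters and leaving out each library. Some genes that this rule names are not reported here.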

Additional observations from a re-analysis of the deposited data

Results flagged for a closer look

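Several members were called in opposite directions in 2 cell classes under the same contrast. At 3 days against chow, Tk1 had a ratio of 0.580 in Kupffer-like cells and 4.62 in lymphoid-like cells. In the same contrast Hist1h2ap had 5.24 in lymphoid-like and 0.0763 in endothelial-like cells, Stmn1 8.18 and 0.103, H2afz 1.76 and 0.598, and Tuba1b 2.37 and 0.503. Hmgb2 was 1.58 in Kupffer-like, 2.28 in lymphoid-like and 0.450 in endothelial-like cells. At 10 days against chow Cenpa had 2.76 in lymphoid-like and 0.398 in endothelial-like cells. At 10 days against 3 days Tuba1b had 1.51 in Kupffer-like and 0.423 in lymphoid-like cells. None of these differences between classes was tested, since each diet has 1 library, and the lymphoid-like and endothelial-like values rest on few cells. Without the carriers, Hist1h2ap, Stmn1, Hmgb2 and Tuba1b were still called higher in lymphoid-like cells at 3 days, and Tk1 still lower in Kupffer-like cells. For Hist1h2ap, Stmn1, Hmgb2 and Tk1, values in the other classes named were then not called or had too few UMIs to be read. H2afz was then called in neither class. At 3 days against chow, only Tuba1b was then still called in opposite directions. Cenpa at 10 days was then not called in lymphoid-like cells.

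Classes outside the comparisons also held carriers. Among dendritic-like cells, mitotic carriers were 7.58% at 3 days (5 of 66) and 3.85% at 10 days (2 of 52), against 1.49% on chow (1 of 67). In mixed clusters, those with markers of Kupffer cells and of another type, they were 3.63% at 3 days (7 of 193), against 3.31% on chow (4 of 121). The intervals overlap in both classes.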

How the results depend on the processing

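Of 120 shares of carriers recomputed under other settings, 95 lay inside the interval of the main value and 25 outside. With 1 distinct mitotic member in place of 2, Kupffer-like shares were 6.32%, 7.09% and 6.42% (chow, 3 days, 10 days), lymphoid-like shares 7.30%, 9.09% and 6.06%, and endothelial-like shares at 3 and 10 days 9.01% and 11.8%. With 3 members, Kupffer-like shares at 3 and 10 days were 1.17% and 1.26%. Without thinning, mitotic shares in Kupffer-like cells were 3.72%, 3.10% and 3.17%, and S-phase shares 11.6%, 4.27% and 7.11%. S-phase shares were 4.52%, 3.10% and 4.85% with 2 members, 0.586%, 0.391% and 0.994% with 4, and 2.24%, 1.44% and 2.56% when thinned to 1500 UMIs; the 3-day library was lowest in each. With a fold of 2, members called in Kupffer-like cells numbered 2 at 3 days against chow and 3 at 10 against 3 days. The share of all genes called at this fold is not printed here, so these counts have no background beside them. Without the mitotic carriers, 6 were called at 3 days against chow, with 4.38% of genes called higher and 3.52% lower. Without any carrier, 2 were called at 10 days against chow, both lower, with 4.59% of genes lower. Without any carrier, 4, 0 and 4 members were called in lymphoid-like cells (3 days and 10 days against chow, 10 against 3 days), and 1 and 1 in endothelial-like cells (3 and 10 days against chow). The shares of all genes called in these readings are given with the results of those cells above. Leaving out carriers and the test of S-phase carriers were chosen after seeing the data.

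Carriers and other cells of a library come from 1 mouse and are paired by design. Without the replicate block, the test of mitotic carriers called 718 genes in place of 1318, with 14 of 15 S-phase members among them, and DESeq2 called 767. Leaving out each library in turn gave 858 to 1063 genes, the lowest without the 3-day library, and 14 S-phase members each time. Asking for 3 distinct mitotic members left 13, without Mcm2 (log2 1.39, edgeR adjusted p = 0.0750). Of the named genes, Klf4, Ltc4s and Adap2os were not called without the block (edgeR adjusted p from 0.0873 to 0.212), and Cd37, Adap2os and Apol7c not with DESeq2. The log2 difference of Apol7c was -1.09 without the chow library and 4.67 without the 10-day one.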
